A study of Rattus norvegicus with 6 samples.

Results

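The arrays carried 1 probe each for P2rx2, Enpp1 and Slc28a2, 3 rat transcripts of extracellular ATP and nucleoside handling, among 39886 non-control probes of which nearly all target PIWI-interacting RNAs (piRNAs). The 3 probes were taken by the RefSeq accession in the scanner files, whatever its version: NM_053656 for P2rx2 (probe A_44_P288091), NM_053535 for Enpp1 (probe A_43_P12841) and NM_031664 for Slc28a2 (probe A_44_P1024721). The genes were chosen by their strain difference on these same 6 arrays, which was known when they were singled out. That difference is therefore described here with its error and carries no p-value. No threshold on it was part of the choice.

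Islet total RNA was measured in 3 samples from Goto-Kakizaki (GK) rats and 3 from Wistar rats, all aged 3 months, with 1 sample per array. Per the labels, each islet RNA sample was an extract of its own. The GK strain, derived from Wistar rats by selection for poor glucose tolerance, develops type 2 diabetes without obesity, and the labels give no treatment for either strain. RNA was labelled directly at its 3' end with Cy3 by RNA ligase, so a transcript probe reads whatever labelled RNA, whole or fragment, pairs with it. The file headers give GK 1 and the 3 Wistar arrays one scan identifier, and GK 2 and GK 3 another. Arrays with the same identifier are taken here to share a slide, which is an inference, and strain and slide then overlap in part.

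ATP is stored with insulin in beta cell granules and released with it. Outside the cell it opens P2X channels, is cut by ectonucleotidases, and its nucleoside products are carried back into cells by transporters. P2rx2 encodes a subunit of ATP-gated cation channels. Enpp1 encodes a membrane ectoenzyme that splits extracellular ATP into AMP and pyrophosphate and is also known as an inhibitor of the insulin receptor. Slc28a2 encodes a sodium-coupled transporter that concentrates purine nucleosides, and uridine, inside cells.

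In the rat assembly GRCr8, P2rx2 lies on chromosome 12 (51999107 to 52002627), Enpp1 on chromosome 1 (22518051 to 22583044) and Slc28a2 on chromosome 3 (129778425 to 129841292). Where in each transcript the probe lies, and on which strand, is not stated in the labels or files, so the exon or UTR it reads is unknown. Each probe was printed as 10 spots on every array, which show how precisely an array was read but are not replicates of a strain.

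The 3 probes were brighter in GK than in Wistar islets. On the scaled log2 scale, which subtracts from the log2 processed signal the array's 75th percentile over detected probes, the measured differences were 3.17 (SE 0.39) for P2rx2, 2.24 (SE 0.30) for Enpp1 and 1.31 (SE 0.36) for Slc28a2. The Enpp1 value was taken against Wistar signals that are not well above background, so it is not an exact level difference and has no settled place beside Slc28a2. With normexp, another background correction that here also added an offset of 50 units, Enpp1 had a difference of 0.69 and Slc28a2 of 0.84. For each gene the lowest GK array lay above the highest Wistar array on this scale. In bulk islet RNA, more cells of a type and more RNA per cell cannot be told apart.

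The ATP-gated channel gene P2rx2 gave processed signals of 178, 104 and 109.5 intensity units in GK 1, 2 and 3. In Wistar 1, 2 and 3 it gave 29.0, 21.5 and 9.54. The strains did not overlap even spot by spot before any scaling, since the dimmest unflagged GK spot read 95.7 and the brightest unflagged Wistar spot 32.2.

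The scaled log2 signal of P2rx2 was -0.16, -0.54 and -0.37 in GK and -3.02, -3.18 and -4.39 in Wistar. The means were -0.36 ± 0.19 in GK and -3.53 ± 0.75 in Wistar (SD, n = 3 each), a 9.03-fold higher level in GK. This fold depends on the background subtraction, and was 2.91-fold with normexp, which added an offset of 50 units, and 3.10-fold in raw spot signals. Most of the Wistar spread came from Wistar 3, the dimmest array for this probe. Without Wistar 3 the P2rx2 difference was 2.75 (SE 0.25).

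The SD over P2rx2 spots within an array was 0.06 to 0.11 in GK and 0.14 to 0.27 in Wistar on the log2 scale, under the SD between arrays in each strain. P2rx2 was well above background on all 6 arrays, a call made when more than 50% of the unflagged spots carry the scanner software's own flag. On Wistar 3, 8 of 10 spots carried it.

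**Figure D1:**
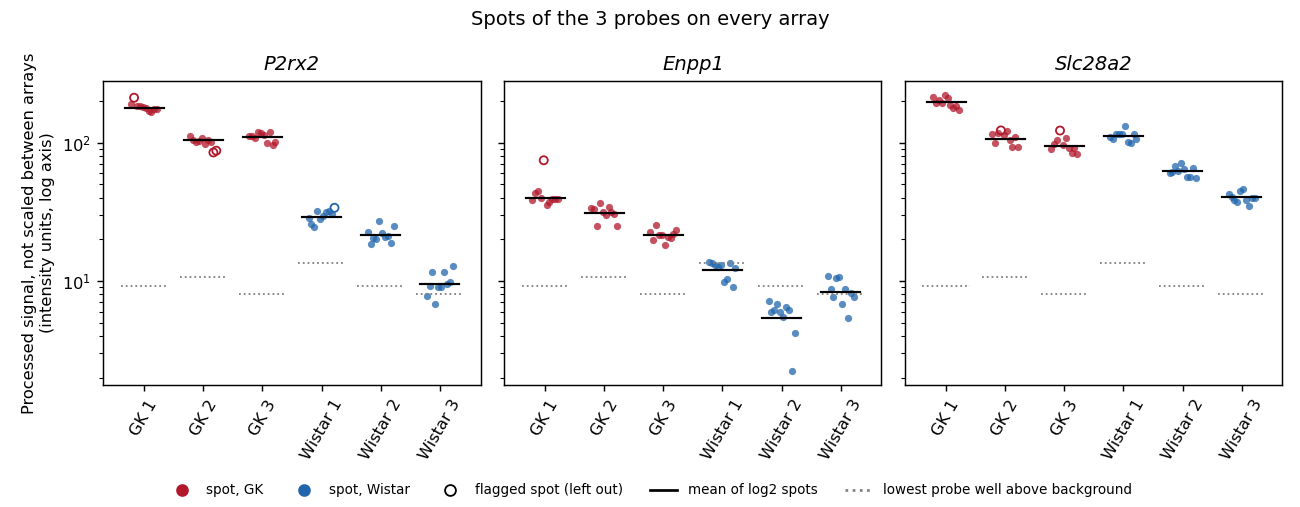
Processed signal of every spot (vertical log axis, intensity units, not scaled between arrays) for P2rx2, Enpp1 and Slc28a2 on the 3 GK arrays (red) and the 3 Wistar arrays (blue), with the mean of log2 spots as a black bar, flagged spots as open circles and the dimmest probe well above background on that array as a dotted line. Unflagged P2rx2 spots of GK start at 95.7 units and those of Wistar end at 32.2, the Enpp1 mean is close to the dotted line or below it in Wistar, and Slc28a2 overlaps between GK 2, GK 3 and Wistar 1.

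The ectoenzyme gene Enpp1 was dim. It gave 39.6, 30.8 and 21.5 units in GK 1, 2 and 3, and 11.97, 5.43 and 8.34 in Wistar 1, 2 and 3. All 30 GK spots were well above background, against 0, 0 and 3 of 10 spots on Wistar 1, 2 and 3, so Enpp1 counted as detected on every GK array and on no Wistar array. Over all non-control probes, 64 of 39886 (0.16%) had that pattern. As this contrast entered the choice of genes, nothing is read from the share.

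Scaled log2 signals of Enpp1 were -2.33, -2.29 and -2.72 in GK and -4.30, -5.17 and -4.58 in Wistar. The means were -2.45 ± 0.24 in GK and -4.68 ± 0.44 in Wistar (SD, n = 3 each). As Enpp1 was not detected in Wistar, its GK mean was set against a floor, and was 3.80-fold higher under this scaling and background subtraction. Fitted folds are another measure, taken against the undetected Wistar signals themselves, and the main one was 4.72. With normexp the fitted fold was 1.61, and with the 75th percentile taken over all non-control probes (the all-probe percentile) it was 3.41. It was 3.46 with quantile normalization and 3.64 with no scaling. Scaling to Gapdh, Sdha and Rplp1 gave 3.93, the median over spots 4.45, flagged spots kept 4.82 and the slide as a block 5.12. Leaving out single arrays gave 3.99 to 5.38. The floor is, per Wistar array, the higher of the probe's own signal and the dimmest signal of any probe well above background there. On Wistar 3 the undetected Enpp1 signal of 8.34 was above that dimmest signal of 8.07, so 3.80-fold is not a strict lower limit. By scan, the fold over the same floor was 4.13 for GK 1 and 3.65 for GK 2 and GK 3.

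The nucleoside transporter gene Slc28a2 was well above background in every spot of every array. It gave 195, 107 and 93.8 units in GK 1, 2 and 3, and 111, 61.9 and 40.2 in Wistar 1, 2 and 3. Before scaling the strains overlapped, with GK 2 and GK 3 below Wistar 1.

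Scaled log2 signals of Slc28a2 were -0.03, -0.50 and -0.59 in GK and -1.09, -1.65 and -2.32 in Wistar. The means were -0.37 ± 0.30 in GK and -1.69 ± 0.61 in Wistar (SD, n = 3 each), a 2.49-fold higher level in GK. The gap between the lowest GK and the highest Wistar array was 0.49, smaller than the Wistar SD, against gaps of 2.49 for P2rx2 and 1.58 for Enpp1. With no scaling, and with the all-probe percentile, the Slc28a2 arrays of the strains overlapped. The difference was then 0.94 (SE 0.46) and 0.84 (SE 0.47). P2rx2 and Enpp1 did not overlap under either setting.

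Among all 11357 tested probes with a value on every array, 1373 (12.1%) had all 3 GK arrays above all 3 Wistar arrays and 622 (5.48%) had them all below. This balance turned with the scaling, to 354 above and 1494 below with none, and to 229 above and 1920 below with the all-probe percentile. The 3 probes are 3 such cases by the values that chose them. In the limma fit of 11398 tested probes, 5 (0.0439%) passed a Benjamini-Hochberg adjusted p of 0.05, and P2rx2, Enpp1 and Slc28a2 were not among them. The median difference over all tested probes was 0.16.

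The array also held probes for other named rat transcripts, among them the reference genes Gapdh, Actb and Rplp1. A name from a RefSeq accession was found for 61 probes of 38 genes, 3 of them P2rx2, Enpp1 and Slc28a2, and 50 of the 61 probes were tested. The other 47 tested probes (31 genes) had a median difference of 0.34, from -0.98 to 3.38. In 15 of the 47 all GK arrays lay above all Wistar arrays, and in 0 all lay below, where the share over all probes was 12.1% above and 5.48% below. Without scaling these counts were 4 above and 2 below, and with the all-probe percentile 4 and 4. They were 13 and 0 with quantile normalization, 18 and 1 with normexp, and 8 and 2 when scaled to Gapdh, Sdha and Rplp1. The counts over all tested probes moved as well, to 354 above and 1494 below without scaling and to 229 and 1920 with the all-probe percentile. The lean of the named transcripts toward GK thus varied in size with the processing. With the all-probe percentile as many lay above as below, while most non-overlapping probes of the whole array lay below.

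**Figure D2:**
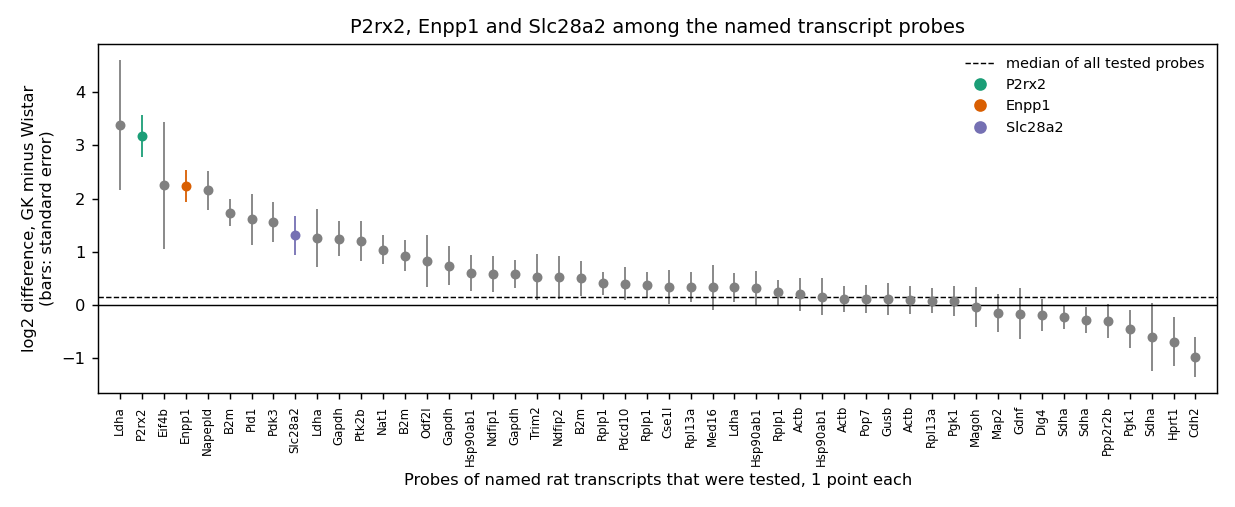
Log2 difference, GK minus Wistar, with the standard error of the fit as bars, for the 50 tested probes of named rat transcripts in order of size. P2rx2 (3.17), Enpp1 (2.24, against undetected Wistar signals) and Slc28a2 (1.31) are coloured and were chosen by this difference, the other probes run from -0.98 to 3.38, and the dashed line marks the median of all tested probes at 0.16.

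None of 38 further purinergic and nucleoside genes that were looked for, which included the other P2X and P2Y receptors, adenosine receptors, ectonucleotidases and nucleoside transporters, was among the named probes. The pathway is thus read through these 3 transcripts alone. Of 32 listed markers of islet, exocrine, duct, endothelial, immune, stellate and neural cells, only B2m, the light chain of MHC class I, was among the named probes. Probes without a name could not be searched for any of these genes. The cell makeup of the islets therefore could not be checked, and no defining marker of endocrine cells was found among the named probes. The 3 probes of B2m had differences of 1.74 (SE 0.25), 0.92 (SE 0.29) and 0.50 (SE 0.32). Under the main scaling 2 of them had all GK arrays above all Wistar arrays, as did 12.1% of all tested probes with a value on every array. B2m is made by most cells, and its part in the differences of P2rx2, Enpp1 and Slc28a2 was not tested.

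The dim end of the processed signal rests on background subtraction, and the unsubtracted spot signals show how much. The median raw spot of P2rx2 read 217, 142 and 149.25 units in GK 1, 2 and 3, and 67.5, 54.5 and 42.0 in Wistar 1, 2 and 3. Negative control spots read 31.5 to 35.0 on the 6 arrays, and on Wistar 3 itself P2rx2 stood at 42.0 against 31.5 for these spots without a target. In raw signal P2rx2 was 3.10-fold higher in GK, without overlap between strains, against 9.03-fold in processed signal.

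Raw Enpp1 spots read 75, 68.25 and 57.5 units in GK and 47.75, 39.75 and 40.5 in Wistar. That is 1.56-fold higher in GK, again without overlap. Raw Slc28a2 spots read 228.75, 144.5 and 129 units in GK and 146, 95.0 and 72.5 in Wistar. They were 1.62-fold higher in GK on average, and GK 2 and GK 3 lay below Wistar 1. The raw values still hold the background and so understate a fold.

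Normexp as run here added an offset of 50 units to the signals. That is more than the processed signal of P2rx2 or Enpp1 on any Wistar array, at most 29.0 and 11.97. Such a constant lowers the fold of a dim probe, and its share was not separated from that of the background correction. With normexp the log2 differences were 1.54 (SE 0.14) for P2rx2, 0.69 (SE 0.13) for Enpp1 and 0.84 (SE 0.18) for Slc28a2. These correspond to 2.91-fold, 1.61-fold and 1.79-fold. In each the lowest GK array stayed above the highest Wistar array. Among all tested probes, 2607 had that order with normexp, against 1373 with the main processing, so nothing is read from it. P2rx2 had the largest measured difference of the 3 under both corrections.

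**Figure D3:**
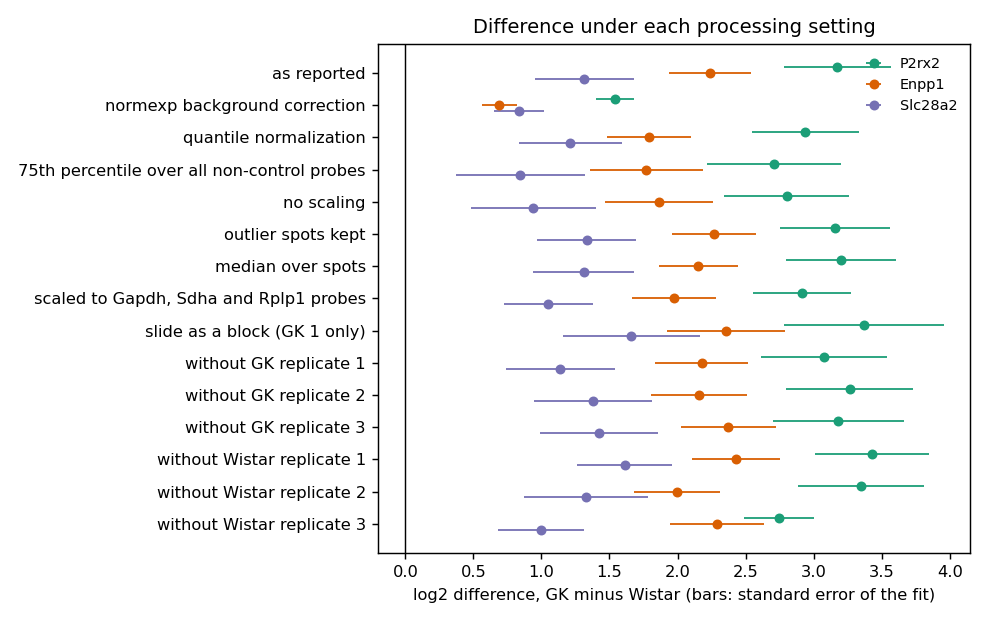
Log2 difference, GK minus Wistar (horizontal axis, with the standard error of the fit as bars), of P2rx2, Enpp1 and Slc28a2 under each processing setting or with 1 array left out. Every point lies right of 0. Normexp background correction, with its offset of 50 units, lowers P2rx2 to 1.54 and Enpp1 to 0.69, and Slc28a2 runs from 0.84 to 1.66.

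Within the scan that holds both strains, GK 1 exceeded the mean of the 3 Wistar arrays by 3.37 for P2rx2, 2.36 for Enpp1 and 1.66 for Slc28a2 on the scaled log2 scale. GK 2 exceeded that mean by 3.00, 2.39 and 1.19 for the same genes. GK 3 exceeded it by 3.16, 1.96 and 1.09. All 3 genes were thus higher on the GK array scanned beside the Wistar arrays as well as on the others, and for P2rx2 and Enpp1 the 3 GK arrays were close to each other. The other scan held no Wistar array, so no value within it could be had.

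The arrays differed in brightness. Between 9763 and 14415 probes were well above background per array, and the median signal was 2.43 to 3.41 units on 5 arrays and 7.87 on GK 2. Without GK 2 the differences were 3.26 for P2rx2, 2.16 for Enpp1 and 1.38 for Slc28a2. Correlations between pairs of arrays across 11357 probes ran from 0.873 to 0.969. No spot was saturated. The precision is limited by the number of arrays.

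Ranks within an array need no scaling. The share of probes dimmer than the P2rx2 probe on the same array was 94.7%, 93.7% and 94.2% in GK 1, 2 and 3, against 83.5%, 81.7% and 70.7% in Wistar 1, 2 and 3. For Enpp1 the share was 86.5%, 84.0% and 84.1% in GK against 72.5%, 61.7% and 68.6% in Wistar. For Slc28a2 it was 95.0%, 93.9% and 93.6% in GK against 92.5%, 90.4% and 87.1% in Wistar. By rank the strains were apart for all 3 genes, and narrowly so for Slc28a2. The Wistar ranks of Enpp1 are those of undetected signals. How many of all probes were apart by rank was not counted, so nothing is read from it.

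The genes were also set against one another within each array. A scaling that subtracts a single value per array cannot move the difference between 2 probes on that array, though quantile normalization can. The difference of P2rx2 minus Slc28a2 was -0.14, -0.04 and 0.22 log2 units in GK 1, 2 and 3. In Wistar 1, 2 and 3 it was -1.94, -1.52 and -2.07. The means were 0.02 ± 0.19 in GK and -1.84 ± 0.29 in Wistar (SD, n = 3 each), so the ratio was higher by 1.86 in GK. Its size depends on the background subtraction of the dim Wistar P2rx2 spots. The ratio was higher in GK by 0.70 with normexp and by 0.94 in raw spot signals, and under both the lowest GK array lay above the highest Wistar array. This shows unequal differences of the 2 probes between strains, not a level of one gene above the other.

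The ratio of P2rx2 to Enpp1 overlapped between strains, from 1.76 to 2.35 log2 units in GK and from 0.20 to 1.99 in Wistar. The ratio of Enpp1 to Slc28a2 was -2.30 to -1.79 in GK and -3.51 to -2.27 in Wistar, which also overlap. Both rest on Enpp1 signals below the detection call in Wistar.

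The scaled profile over the 6 arrays was compared with those of the 47 other named transcript probes, each centred on its own mean, by the root mean square (RMS) difference in log2 units. A smaller value means a more similar course over arrays. The arrays and the scaling are common to all profiles, and with 3 arrays a strain any transcript higher in GK lies closer to these genes.

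For Slc28a2 the nearest profiles were those of Pdk3, a kinase that restrains pyruvate dehydrogenase (0.19), the adhesion-linked kinase Ptk2b (0.29) and the phospholipase Pld1 (0.31), with a median of 0.76 over the 47 probes. All of these probes were detected on every array. For P2rx2 the median was 1.54 and the nearest profiles were Napepld (0.73), Pld1 (0.80) and B2m (0.81, its probe with a strain difference of 1.74). As profiles are not scaled for size, the RMS difference grows with the gap between strain differences. That of P2rx2 (3.17) was known when it was chosen, and Napepld (2.15) and Pld1 (1.61) had smaller ones. No lack of a similar course is therefore read from these distances. The RMS difference between P2rx2 and Slc28a2 was 0.95. That between P2rx2 and Enpp1 was 0.72, and it includes Enpp1 signals below the detection call.

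For Enpp1 no likeness was measured, because its 3 Wistar signals are below the detection call. The smallest computed values, which include those signals, were for Napepld, an enzyme that releases N-acylethanolamines from membrane lipids (0.15), B2m (0.42) and Pdk3 (0.48). The B2m probe was the same as for P2rx2. The Napepld probe was itself well above background on 4 of 6 arrays only.

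**Figure D4:**
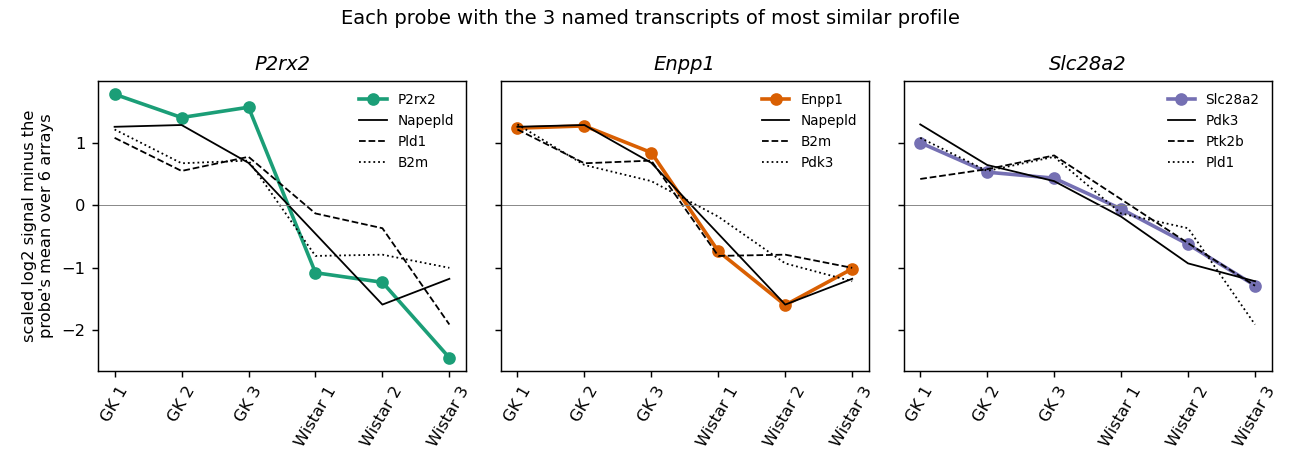
Scaled log2 signal minus the mean over 6 arrays (vertical axis) for P2rx2, Enpp1 and Slc28a2 (coloured) and the 3 named transcripts of most similar profile (black), on the GK and then the Wistar arrays, with lines as guides between arrays that have no order. Pdk3 runs along Slc28a2 at an RMS difference of 0.19, and P2rx2 is 0.73 from the nearest of the other named transcripts. The Wistar points of Enpp1 are signals below the detection call. B2m is its probe with a strain difference of 1.74.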

How the data were processed

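Per the labels' protocols, islet total RNA was labelled with Cy3 by RNA ligase. Per the file headers, the authors read the arrays with Agilent Feature Extraction 11.0.1.1. In this processed signal intensity, background was subtracted array by array and no step made the arrays comparable. Each deposited file holds 42734 spots, of which 1417 are controls. The deposited matrix and comparison table hold piRNAs only and were not used here.

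Log2 processed signals were averaged over spots without outlier flags and reduced by each array's 75th percentile, taken over 7756 probes that met the well-above-background call on every array. Probes well above background on at least 3 arrays were tested with limma 3.58.1 (R 4.3.3) for strain alone, at a Benjamini-Hochberg adjusted p of 0.05. The fit was tested on simulated data. Normexp used the median spot signal and an offset of 50. Other settings were quantile normalization, other scalings, spot summaries, blocks and left-out arrays. The scaling to Gapdh, Sdha and Rplp1 and the values by scan, and the within-array ratio and named transcript counts under other settings, were chosen after seeing the data.

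The members and lists were chosen with earlier results of these data known. Every probe of the 3 genes is named, with the 3 nearest named transcripts of each by profile. Gene names and positions come from RefSeq on GRCr8. Replicates are separate samples in the labels.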

Additional observations from a re-analysis of the deposited data

How the results depend on the processing

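P2rx2, Enpp1 and Slc28a2 were higher in GK in all 14 alternatives with a value of their own that were run for each. The slide block equals GK 1 against Wistar, and leaving out GK 1 equals GK 2 and GK 3 against Wistar. The P2rx2 difference moved by more than the SD between arrays only with normexp (1.54). For Enpp1 it did so with normexp (0.69), quantile normalization (1.79), no scaling (1.87) and the 75th percentile over all non-control probes (1.77). No alternative moved Slc28a2 that far, and its values ran from 0.84 to 1.66. Scaled to 7 Gapdh, Sdha and Rplp1 probes, the differences were 2.91, 1.98 and 1.05. Under the main scaling those reference probes themselves differed by 0.58 and 0.74 for Gapdh, 0.24 to 0.41 for Rplp1, and -0.28 and -0.22 for Sdha. Leaving out each array in turn gave 2.75 to 3.43 for P2rx2, 2.00 to 2.43 for Enpp1 and 1.00 to 1.61 for Slc28a2. The median of all tested probes ran from -0.31 to 0.22 over the scalings and background corrections. Relative to it P2rx2 was higher by 1.33 to 3.05, Enpp1 by 0.48 to 2.11 and Slc28a2 by 0.62 to 1.31, with the lowest value of each under normexp.

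The count of 5 probes past limma's adjusted p of 0.05 was 13 with normexp, 14 with the percentile over all probes, 8 with trend and robust eBayes, 9 when flagged spots were kept and 2 among probes detected on every array. It was 0 with quantile normalization, no filter on dim probes, the slide as a block, or the replicate block. It was 21 without GK 1 and 0 without any other single array. In the 9 settings with 0 calls, 411 to 2457 probes had an unadjusted p under 0.05. Probes with all GK arrays above all Wistar arrays (1373) numbered 2607 with normexp, 741 with quantile normalization, 229 with the percentile over all probes, 354 with no scaling and 3433 without the filter. Those all below (622) numbered 348, 1196, 1920 and 1494 in the first 4 of these. The cause was not tested.

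The labels number the samples 1 to 3 in each strain. Deviations from the strain means correlated at -0.03, 0.04 and 0.04 between samples of the same number, so no pairing by number was seen. With 3 arrays a strain this cannot show that such samples share nothing else. The replicate block cannot move the differences (3.17, 2.24 and 1.31) by its construction, and their SEs in it were 0.37, 0.33 and 0.30.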
